A study of Mus musculus with 9 samples.

Results

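Of the 50686 mouse genes in the deposited count table, 10 transcription factors of the endothelial lineage were examined. These were Erg, Fli1, and Etv2 of the ETS family, Sox7, Sox17, and Sox18 of the SOX family, Tal1, Lmo2, and Gata2, which act together in endothelial and blood progenitors, and the homeobox gene Hhex. They were chosen by name, and all 10 were found. RNA-Seq had been performed on 3 groups of 3 libraries. The control group was the untreated mouse osteoblast line MC3T3-E1. The treated group was the same line given SB216763, a small-molecule inhibitor of the kinase GSK3, at 10 μM for 14 days. The third group was mouse pulmonary endothelial cells (ECs), which were isolated by FACS and whose titles name no treatment. MC3T3-E1 is 1 established line, and the time in culture of the untreated cells and the age of the mice that gave the ECs are not given in the sources used here. The study asked whether GSK3 inhibition moves osteoblasts toward the endothelial lineage, and the comparisons below ask where the lineage factors stood in each group.

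Endothelial gene programs are set by a small group of DNA-binding proteins that act on shared enhancers. ETV2 acts briefly in the embryo to specify blood and endothelial progenitors, and ERG and FLI1 then maintain the program in mature endothelium through the GGAA core that ETS proteins recognize. The SOXF proteins SOX7, SOX17, and SOX18 act in arterial, venous, and lymphatic development, TAL1 and GATA2 are joined by the bridging protein LMO2 at E-box and GATA sites, and HHEX is a homeobox repressor of early endothelium, blood progenitors, and endoderm.

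The libraries held between 30990107 and 68946333 counts, so 3 counts, the smallest number taken here as detection, corresponded to between 0.0473 and 0.104 CPM, the count relative to the normalized library total. This limit and the intervals of count ratios cover counting error only. CPM values were normalized by the TMM method of edgeR, and levels of different genes were compared as FPKM, which divides CPM by the length of the annotated exons. Adjusted p-values are those of the edgeR quasi-likelihood F test after Benjamini-Hochberg correction over the 15531 genes tested. The labels do not say whether libraries came from separate cultures or animals, so p-values measure the spread between these libraries, which may be technical. Defining genes were read in each group. Cdh5, Pecam1, and Kdr, which mark endothelium, were at 1794, 1756, and 1230.2 CPM in ECs and at no more than 0.788 CPM in either MC3T3 group. The 8 osteoblast markers summed to between 20160 and 28763 CPM in the control libraries, between 2861 and 3009 CPM in the treated libraries, and between 37.6 and 46.8 CPM in ECs. Most of this sum in the MC3T3 libraries was Col1a1, which averaged 24511 CPM in the controls and 2732 CPM after treatment.

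Tal1 (ENSMUSG00000028717.12, chr4:115056426-115071755, plus strand) and Hhex (ENSMUSG00000024986.11, chr19:37434810-37440731, plus strand) were the factors that fell past the threshold after SB216763, as described below. These coordinates, and those of the other factors, are from GENCODE M21 on GRCm38. The bases just upstream of both annotated starts are shown to give the sequence in front of the genes that changed. They are RefSeq promoter sequence on GRCm38.p6, at chr4:115056176-115056425 and chr19:37434591-37434809, written 5′ to 3′ on the plus strand. Capitals mark a match to a motif on either strand. The ETS family was searched as CCGGAA. The GATA family was searched as AGATAA. The motif of the TCF and LEF factors, which act with β-catenin, was CTTTGAT. The E-box of TAL1 was searched as CAGATG. No matches overlapped.
Tal1: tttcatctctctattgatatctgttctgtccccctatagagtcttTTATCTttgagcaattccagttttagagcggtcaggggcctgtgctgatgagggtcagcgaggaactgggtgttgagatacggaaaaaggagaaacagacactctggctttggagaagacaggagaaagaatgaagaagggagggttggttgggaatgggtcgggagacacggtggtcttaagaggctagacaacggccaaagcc
Hhex: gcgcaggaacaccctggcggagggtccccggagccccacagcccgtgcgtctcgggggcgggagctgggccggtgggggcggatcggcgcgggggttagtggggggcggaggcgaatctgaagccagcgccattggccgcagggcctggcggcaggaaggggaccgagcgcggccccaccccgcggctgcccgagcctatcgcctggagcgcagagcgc
The Tal1 window held 1 match, to AGATAA on the minus strand, whose first base lies 205 bases before the annotated start, and the Hhex window held none. Within 250 bases upstream, 12% of 32851 promoters held CCGGAA, 9.99% AGATAA, 3.21% CTTTGAT, and 14.4% CAGATG. The Hhex window was 77.2% G and C with 26 CpG in 219 bases and overlaps the annotated gene Gm38345. The Tal1 window was 48.8% G and C with 6 CpG in 250 bases, against a median of 52.4% and 6 CpG over all promoters. Promoter entries were found for 5 of the 10 factors.

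In the ECs, 9 of the 10 factors were detected, and Etv2 was the exception. Sox18 was the highest, at 239.8 ± 8.75 FPKM (SD, n = 3), followed by Erg at 61.5 ± 1.63 FPKM and Fli1 at 31.1 ± 0.735 FPKM. Tal1, Sox7, Lmo2, Sox17, and Gata2 lay close together, between 24.2 ± 0.452 FPKM for Tal1 and 18.7 ± 0.654 FPKM for Gata2, and Hhex was at 9.63 ± 0.417 FPKM. In this order Tal1 and Sox7 overlapped between libraries, as did Lmo2 and Sox17, and the other neighbors were separated in all 3 libraries. Among the genes tested, 99.1% had a lower mean FPKM than Sox18 in ECs, and 68.2% had a lower one than Hhex.

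The order was different in the osteoblasts. In the control libraries Fli1 was at 2.30 ± 0.0308 FPKM, Gata2 at 0.861 ± 0.0683, Hhex at 0.553 ± 0.0943, Sox18 at 0.256 ± 0.0179, and Tal1 at 0.208 ± 0.0150 FPKM (SD, n = 3), each separated from the next in all 3 libraries. Erg, Sox17, Lmo2, and Sox7 followed with means between 0.0393 and 0.0157 FPKM, and their libraries overlapped. In the treated libraries Fli1 and Gata2 were again first, at 3.06 ± 0.0400 and 1.33 ± 0.110 FPKM. Sox18 and Hhex, at 0.105 ± 0.0925 and 0.0901 ± 0.00552 FPKM, overlapped there, and the factors from Tal1 down to Sox17 overlapped with their neighbors.

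The factors differed in how far the control osteoblasts lay below the ECs. The log2 fold change of ECs over control osteoblasts was 3.76 for Fli1, 4.08 for Hhex, 4.45 for Gata2, and 6.86 for Tal1, and lay between 9.72 and 10.60 for Lmo2, Sox18, Sox17, Erg, and Sox7. The threshold used throughout was an FDR under 0.01 together with a log2 fold change of 2 or more in size. All 9 tested factors were higher in ECs by it, as were 13.5% of the genes tested, and in all 9 the EC libraries lay above every control, as in 42.6% of the genes tested. These counts are descriptions, because Erg, Sox7, Sox17, and Lmo2 passed the filter on low counts only through their EC libraries. With the 6 MC3T3 libraries alone, 5 of the 10 factors passed it. After treatment the 9 factors all remained lower than in ECs by the same threshold, as were 15% of the genes tested, and their libraries did not overlap, as in 43.8% of those genes, with log2 fold changes between -3.34 for Fli1 and -11.39 for Sox17.

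**Figure D1:**
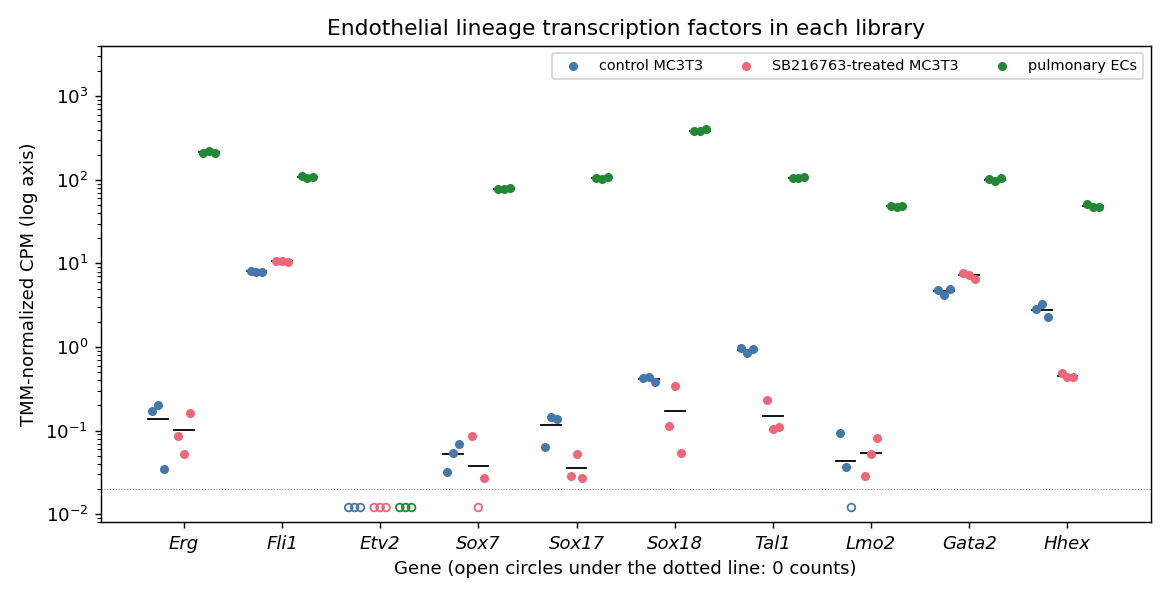
TMM-normalized CPM (log axis) of each factor in each library, with points for libraries, black bars for the mean of 3, and open circles for 0 counts. ECs lay above both MC3T3 groups for the 9 detected factors. The treated libraries lay below the control libraries for Tal1, Hhex, Sox18, and Sox17, as in 35.9% of the genes tested.

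After SB216763, Tal1 and Hhex fell, Fli1 and Gata2 rose by 1.33-fold and 1.56-fold, and no factor rose past the threshold. Of the 9 factors tested, 2 were lower and 0 were higher, where 5.84% and 3.81% of all genes tested passed in the same directions. By unadjusted p under 0.05 in edgeR, 2 factors were higher and 4 were lower, Sox17 among the latter, where 37.9% and 36.4% of all genes tested were, and DESeq2 and limma-voom also gave 0 higher past the threshold. At an FDR under 0.01 and any fold, 2 were higher and 3 were lower, where 32.9% and 32% of all genes tested passed. The median log2 fold change of the 9 factors was -0.63, which is the value of Erg, and that of the 5 factors that passed the filter with the MC3T3 libraries alone was -1.27, against 0.01 over all genes tested. Both are descriptions. In bulk RNA, fewer cells expressing a gene and less RNA per cell cannot be told apart.

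Tal1, a basic helix-loop-helix factor required for blood formation and vascular remodeling, had control counts of 61, 46, and 27, treated counts of 8, 4, and 4, and EC counts of 4570, 3449, and 4674. In CPM these were 0.961, 0.837, and 0.938 in the controls and 0.229, 0.104, and 0.109 after treatment. The treated libraries all lay below the controls, with no overlap, and the ECs, at 106 ± 1.98 CPM (SD, n = 3), lay far above both. The decrease was 6.15-fold, or a log2 change of -2.62 (SE 0.24, adjusted p = 7.00e-08 by edgeR). The interval of the ratio of counts ran from 3.71-fold to 11.3-fold lower. When tested against a log2 fold change of 2, Tal1 did not pass (adjusted p = 0.134 from edgeR, where the alternatives together ranged from 3.72e-17 to 0.134).

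Hhex had control counts of 181, 178, and 66, treated counts of 17, 17, and 16, and EC counts of 2232, 1557, and 2052. In CPM these were 2.85, 3.24, and 2.29 in the controls, 0.487, 0.443, and 0.436 after treatment, and 51.1, 47.4, and 47.5 in ECs. No treated library reached the lowest control. The decrease was 6.27-fold, or a log2 change of -2.65 (SE 0.17, adjusted p = 8.76e-10 by edgeR), and the interval of the ratio of counts ran from 4.73-fold to 8.69-fold lower. Treated osteoblasts stood 106-fold below the ECs for Hhex and 713.8-fold below for Tal1, where control osteoblasts stood 17.0-fold and 116-fold below. These comparisons share their libraries, so the values are given side by side only.

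Gata2 (ENSMUSG00000015053.14, chr6:88193891-88207032, plus strand), a zinc-finger factor of blood progenitors and endothelium, was at 4.82, 4.22, and 4.90 CPM in control libraries, 7.74, 7.30, and 6.56 CPM after treatment, and 102, 97.0, and 104 CPM in ECs. The 3 groups did not overlap. The increase with treatment was 0.64 on the log2 scale (SE 0.08, adjusted p = 3.02e-06 by edgeR). Gata2 remained 14.0-fold below the ECs.

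Lmo2 (ENSMUSG00000032698.15, chr2:103957986-103981878, plus strand), the bridging protein of the TAL1 complex, had 6, 2, and 0 counts in the controls, 1, 2, and 3 after treatment, and 2141, 1558, and 2077 in ECs. The MC3T3 libraries overlapped, and the ratio of treated to control counts was 1.004 with an interval from 0.287 to 3.30, so a change within this interval was not detectable at this depth. The ECs were 888-fold higher than the controls by the ratio of counts, with an interval from 450.5 to 2058. Lmo2 overlaps 4931422A03Rik on the opposite strand, with no shared exon and 88 counts over all 9 libraries.

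Of the ETS members, Fli1 (ENSMUSG00000016087.13, chr9:32422204-32542861, minus strand), which is shared by endothelium and megakaryocytes, was at 8.14, 7.94, and 7.99 CPM in control libraries, 10.7, 10.8, and 10.5 CPM after treatment, and 111, 106, and 109 CPM in ECs. The groups did not overlap, and it differed by 0.41 on the log2 scale with treatment (SE 0.05, adjusted p = 4.05e-06 by edgeR). Fli1 remained 10.2-fold below the ECs. Of all genes tested, 37.3% had 3 treated libraries above 3 controls and 35.9% had them below, and of the factors 2 and 4 did.

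Erg (ENSMUSG00000040732.18, chr16:95359169-95586593, minus strand), which maintains endothelial identity, had 11, 11, and 1 counts in the controls, 3, 2, and 6 after treatment, and 9152, 7208, and 9058 in ECs. The control and treated libraries overlapped, and the ratio of treated to control counts was 0.640 with an interval from 0.282 to 1.37 (adjusted p = 0.255 by edgeR). The ECs were 1359.6-fold higher than the controls by the ratio of counts, with an interval from 906 to 2145. Etv2 (ENSMUSG00000006311.8, chr7:30633616-30635852, minus strand) had 0 counts in all 9 libraries, which allows up to 3 counts, or between 0.0473 and 0.104 CPM, in each.

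Of the SOXF members, Sox18 (ENSMUSG00000046470.5, chr2:181669836-181671640, minus strand), which acts in vascular and lymphatic development, had control counts of 27, 24, and 11, treated counts of 4, 13, and 2, and EC counts of 16656, 12450, and 17474. Treated replicate 2 stood above the other treated libraries, at 0.339 CPM against 0.115 and 0.0545 CPM, while the controls lay between 0.382 and 0.437 CPM. On the log2 scale the change was -1.27 (SE 0.37, with adjusted p = 0.00573 by edgeR), short of the fold threshold. It was -2.29, past the threshold, without SB216763 replicate 2 and -0.85 without SB216763 replicate 3. Apart from the test against a log2 fold change of 2, where it was 1, the adjusted p from edgeR, DESeq2, or limma was 0.01 or more in 6 of 20 alternatives and ranged from 3.89e-05 to 0.0328.

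Sox17 (ENSMUSG00000025902.13, chr1:4490931-4497354, minus strand), an arterial regulator, had 4, 8, and 4 counts in the controls, 1, 2, and 1 after treatment, and 4612, 3390, and 4676 in ECs. The treated libraries lay below the controls without overlap, and the ratio of counts was 0.335 with an interval from 0.0814 to 1.04 (adjusted p = 0.0435 by edgeR, not past the FDR of 0.01). Its exons overlap Gm37587, a transcript on the opposite strand with 9 counts over all libraries, and the strand setting of the counting is not stated, so the source of these few reads is uncertain. Sox7 (ENSMUSG00000063060.5, chr14:63943673-63950732, plus strand), which acts with Sox17 and Sox18 in vessel development, had 2, 3, and 2 counts in the controls, 3, 0, and 1 after treatment, and 3387, 2568, and 3432 in ECs. The MC3T3 libraries overlapped, and the ratio of treated to control counts was 0.765 with an interval from 0.164 to 3.01. The source of the few reads of Erg, Lmo2, Sox7, and Sox17 in the MC3T3 libraries was not tested.

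**Figure D2:**
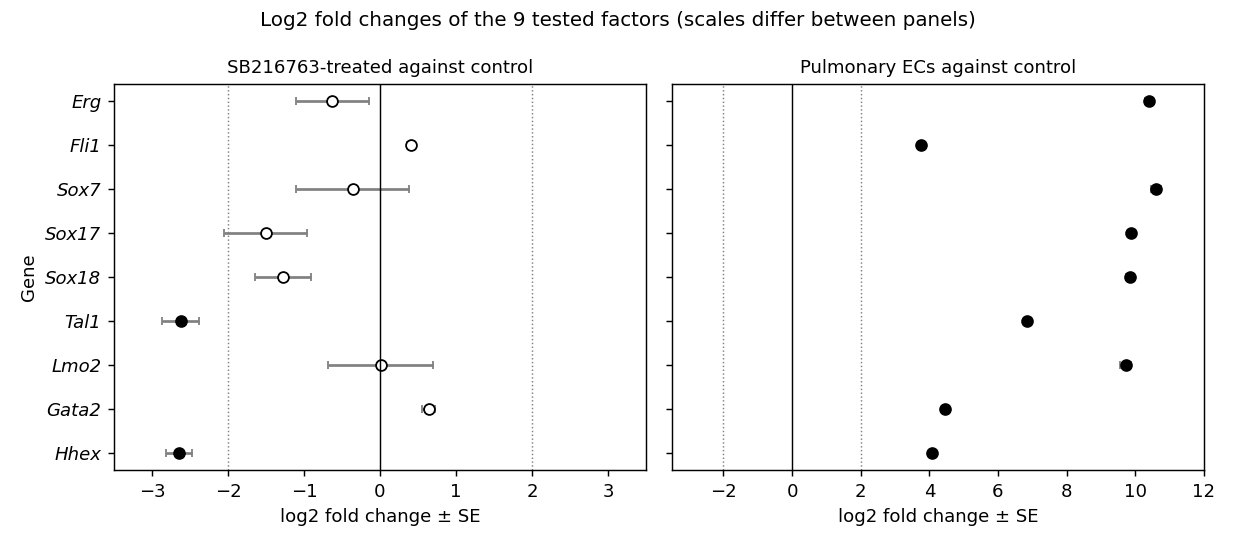
Log2 fold change with its standard error for the 9 factors tested, for treated against control osteoblasts (left) and ECs against control osteoblasts (right), with dotted lines at an absolute value of 2 and filled points for factors past the threshold. Tal1 at -2.62 and Hhex at -2.65 are filled on the left, and all 9 are filled on the right, between 3.76 and 10.60, with the control libraries shared by both panels.

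Beside the rest of their families, these factors made up a small share of ETS and SOX transcripts in osteoblasts. Erg, Fli1, and Etv2 accounted for 28.5 ± 0.0691% of the summed FPKM of 25 ETS genes in ECs, 1.58 ± 0.0185% in the controls, and 1.94 ± 0.0512% after treatment (SD, n = 3). Among these genes Elk3 was the highest in ECs, at 77.9 FPKM, and the repressor Erf was the highest in the controls and after treatment, at 39.0 and 23.5 FPKM. Sox7, Sox17, and Sox18 accounted for 80.7 ± 0.315% of 19 SOX genes in ECs, 0.740 ± 0.0859% in the controls, and 0.227 ± 0.160% after treatment (SD, n = 3). Sox4 was the highest SOX gene in both MC3T3 groups, at 13.1 and 26.9 FPKM.

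**Figure D3:**
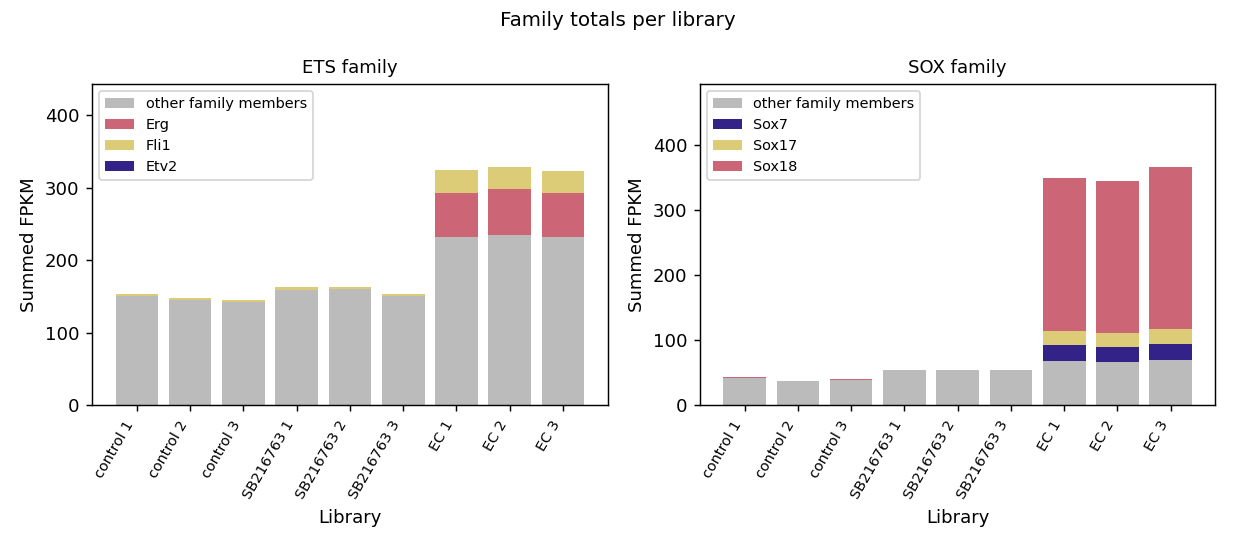
Summed FPKM of the ETS family (25 genes, left) and the SOX family (19 genes, right) in each library, with the factors examined here in color and the other members in gray. The colored parts averaged 28.5% and 80.7% of the totals in ECs, and no more than 1.94% and 0.740% in either MC3T3 group.

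Other ETS and SOX genes passed the threshold with SB216763. Of 22 other ETS genes 15 were tested. By edgeR 2 were higher and 0 lower, where 3.81% and 5.84% of all genes tested passed the threshold. At an unadjusted p under 0.05 in edgeR, 9 were higher and 5 lower, where 37.9% and 36.4% of all genes tested were. Etv1, a factor of the PEA3 group, had 30, 22, and 16 counts in the controls and 424, 388, and 432 after treatment, a log2 fold change of 4.61, and it was at 1.38 CPM in ECs. Etv5 of the same group went from 9.40 to 61.8 CPM, a log2 fold change of 2.71, against 24.1 CPM in ECs. Of 16 other SOX genes 7 were tested. Past the threshold 3 were lower and 0 higher, where 5.84% and 3.81% of all genes tested were. At an unadjusted p under 0.05 in edgeR, 4 were lower and 3 higher, beside 36.4% and 37.9% of all genes tested. Sox11 went from 68.4 to 6.48 CPM and Sox6 from 85.4 to 16.3 CPM, and Sox8 was at 0.651 and 0.0182 CPM. The median log2 fold change was 0.45 for the ETS list and -1.57 for the SOX list, against 0.01 over all genes tested.

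The partners of TAL1, LMO2, and GATA2 held some genes at similar levels in every group and others seen mostly in ECs. Ldb1, which joins LMO2 complexes to each other, averaged 140.4 CPM in control, 197 CPM in treated, and 123 CPM in EC libraries. The E protein Tcf3, a dimer partner of TAL1, was at 193, 138, and 129 CPM in the same order. Lyl1, a close relative of Tal1, was at 0.497, 0.496, and 27.6 CPM, and Lmo1 was at 0.0513, 0.0460, and 61.5 CPM. Of 20 partners 16 were tested. After treatment 1 was higher and 0 lower by edgeR, where 3.81% and 5.84% of all genes tested passed the threshold. At an unadjusted p under 0.05 in edgeR, 6 were higher and 4 lower, beside 37.9% and 36.4% of all genes tested. The gene past the threshold was the corepressor Cbfa2t3, with 2, 2, and 2 counts in the controls, 8, 6, and 5 after treatment, and 1348, 1043, and 1414 in ECs (log2 fold change 2.01, adjusted p = 0.00127 by edgeR). It passed the filter on low counts only through its EC libraries and lay at the edge of the fold threshold, and the interval of its ratio of counts ran from 1.63 to 13.0. Gata1, Gata5, and Lmo3 had 0 counts in all libraries.

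Of 20 other regulators of endothelial development, 17 were tested. After treatment 3 were higher past the threshold (Nr2f2, Foxc1, and Hes1) and 2 were lower (Hey1 and Klf2). Of all genes tested, 3.81% were higher and 5.84% lower past it. At an FDR under 0.01 and any fold, 8 of the regulators were higher and 3 lower, where 32.9% and 32% of all genes tested passed. Nr2f2, a venous regulator, went from 35.3 to 193 CPM and averaged 179.6 CPM in ECs. Foxc1, a forkhead factor of vascular and mesenchymal development, went from 19.2 to 162 CPM and averaged 6.62 CPM in ECs, and the Notch effector Hes1 went from 6.66 to 68.9 CPM and averaged 52.0 CPM there. The Notch effector Hey1 had 73, 45, and 35 counts in the controls and 2, 1, and 1 after treatment, against 19.6 CPM in ECs, and the shear-responsive factor Klf2 went from 46.6 to 4.14 CPM and averaged 169 CPM there. The median log2 fold change of this list was 0.17, and 0.50 over the 13 genes that passed the filter with the MC3T3 libraries alone.

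Endothelial genes, several of them known targets of these factors, were read in the same way. The study examined some of them itself, among them Kdr, Cdh5, Pecam1, Nos3, Cd34, and Vwf, so the list is not independent evidence of a direction. It reported Cd34, Cdh5, Pecam1, and Nos3 as induced in treated osteoblasts by real-time PCR, a different measure from the counts read here. By flow cytometry, which reads protein, it found the products of Pecam1 and Cdh5 on most treated cells of a reporter line. From its RNA-Seq, the source of these libraries, it also stated that endothelial markers were enhanced after SB216763. In these libraries Pecam1 was at 0.759 CPM in the controls and 0.788 CPM after treatment. Nos3 was at 0.501 and 0.416 CPM, and the libraries of both genes overlapped. Of the 24 endothelial genes 23 were tested. After treatment 1 was higher (Dll4) and 1 lower (Flt1) past the threshold, where 3.81% and 5.84% of all genes tested passed. At an FDR under 0.01 and any fold, 32.9% of all genes tested were higher and 32% lower, whereas 17 of the 23 did not pass. Of these 17, 10 were tested only through their EC libraries and had few reads in MC3T3 cells, so that a change was hardly detectable there. Dll4, a Notch ligand, had 6, 6, and 0 counts in the controls, 24, 25, and 28 after treatment, and 559, 420, and 566 in ECs, and its log2 fold change with treatment was 3.06 (adjusted p = 7.43e-07 by edgeR). The VEGF receptor gene Flt1 went from 64.8 to 6.43 CPM and averaged 205 CPM in ECs. At any fold, Dll4, Vwf, and Plvap were higher and Flt1, Cd34, and Eng were lower. Vwf, the gene of von Willebrand factor, went from 1.16 to 2.42 CPM and Plvap, a fenestral diaphragm gene, from 0.899 to 3.31 CPM, while Cd34 went from 54.1 to 30.3 CPM and the TGF-β coreceptor gene Eng from 4.52 to 2.65 CPM. Cdh5, a known target of ERG, was at 0.585 CPM in the controls and 0.599 CPM after treatment. Summed over the list, control libraries held 128 to 141 CPM, treated libraries 52.3 to 58.0 CPM, and EC libraries 11545 to 11908 CPM. Most of the sum in both MC3T3 groups was Flt1 and Cd34, which both fell, so it does not describe the other genes. The median log2 fold change of the list was -0.21, or 0.02 over the 13 genes that passed the filter with the MC3T3 libraries alone.

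**Figure D4:**
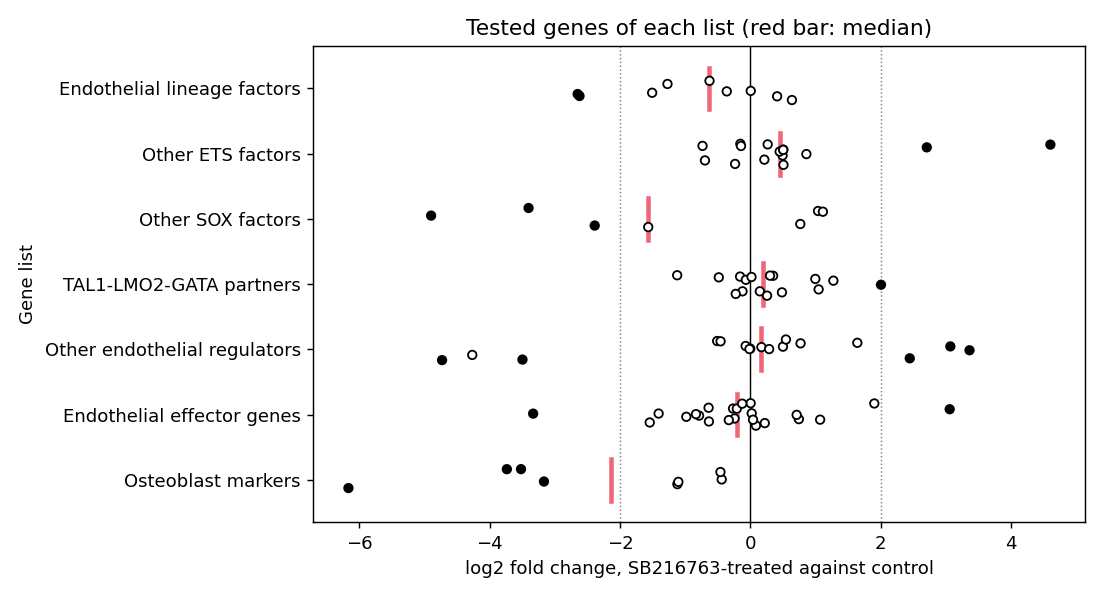
Log2 fold change of treated against control osteoblasts for every tested gene of each list, with red bars for medians, dotted lines at an absolute value of 2, and filled points for genes past the threshold. The medians, which include genes that passed the filter on low counts only through ECs, are -0.63 for the endothelial lineage factors, 0.45 for other ETS genes, -1.57 for other SOX genes, 0.20 for the partners, 0.17 for other regulators, -0.21 for the endothelial genes, and -2.14 for the osteoblast markers.

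Fli1, Tal1, Lmo2, and Gata2 are also expressed by blood cells, so markers of other cell types were read in the same libraries. Of 9 leukocyte markers 2 were above 1 CPM in ECs, Lyz2 and Csf1r, while Ptprc, the gene of CD45, was at 0.0915 CPM and Cd3e had 0 counts. Summed over the list, control libraries held 26.4 to 28.1 CPM, treated libraries 7.27 to 8.91 CPM, and EC libraries 12.5 to 13.0 CPM. The 6 megakaryocyte markers together reached 11.6 to 12.4 CPM in control, 14.6 to 15.6 CPM in treated, and 34.3 to 35.8 CPM in EC libraries, where Pf4 alone was at 26.7 CPM. Pf4 and Ppbp, both platelet chemokine genes, were higher past the threshold after treatment, from 0.0226 to 4.95 CPM and from 0.0836 to 0.346 CPM. Ppbp had passed the filter only through ECs, where Treml1 averaged 0.0153 CPM. The mean of Gp1bb fell instead, with 7.35 CPM for controls, 3.30 CPM for treated cells, and 0.0766 CPM for ECs. Of the 5 megakaryocyte markers tested, 3 were higher and 1 lower after treatment at an FDR under 0.01 and any fold. Of all genes tested, 32.9% and 32% were. The 7 erythroid markers summed to no more than 0.822 CPM in any library and the 6 lung epithelial markers to no more than 0.278 CPM. The 5 mast cell markers reached 0.975 CPM in ECs, mostly from Kit, and Mcpt4, Tpsb2, and Fcer1a had 0 counts throughout. The 4 lymphatic markers summed to between 85.9 and 102 CPM in all libraries, from Pdpn in MC3T3 cells and Lyve1 in ECs, and Prox1 was at 0.0154 CPM in ECs. The 5 mural markers together reached 3119 to 3270 CPM in control, 888 to 899 CPM in treated, and 22.7 to 23.9 CPM in EC libraries. Most of the mural sum was Acta2, which went from 2915 to 144 CPM. Of the 4 mural markers tested, Acta2 and Cspg4 were lower past the threshold, where 5.84% of all genes tested were. At an FDR under 0.01 and any fold, 2 were lower and 1 was higher, beside 32% and 32.9% of all genes tested. The higher gene was Pdgfrb, which went from 254 to 746 CPM after treatment. The leukocyte sum was mostly Lyz2, which went from 26.0 to 7.04 CPM, whereas Ptprc was at 0.0745 and 0.154 CPM. Of the 8 osteoblast markers, Alpl, Ibsp, Col1a1, and Sp7 were lower past the threshold, where 5.84% of all genes tested were. At an FDR under 0.01 and any fold 7 were lower, where 32% of all genes tested were. Runx2, another of these markers, went from 158 to 116 CPM. Col1a1, the collagen gene, went from 24511 to 2732 CPM and Sp7, the osteoblast factor osterix, from 298 to 26.0 CPM. The part of the osteoblast markers, Acta2, and Lyz2 in the decreases of Tal1 and Hhex was not tested.

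The genes whose log2 CPM most resembled that of Tal1 over the 9 libraries were Mcam, Klhl5, and Hoxb8, each with a Pearson correlation of 0.999. For Hhex they were Tubb2b, Acy3, and Rpl3-ps1, also at 0.999, of which Rpl3-ps1 is a pseudogene whose counts are uncertain because it can share reads with its parent gene. These correlations are descriptions, since the libraries fall into 3 groups. Mcam, which encodes the adhesion molecule CD146, averaged 4.70 CPM in control, 1.20 CPM in treated, and 169 CPM in EC libraries, and Tubb2b, a tubulin gene, was at 5.71, 1.89, and 38.7 CPM in the same order.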

How the data were processed

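RNA-Seq of control MC3T3-E1 osteoblasts, osteoblasts given SB216763, and mouse pulmonary ECs was analyzed, 3 libraries each. The authors aligned and counted the reads with STAR and deposited raw counts of 50686 genes in 1 table. The submitters' processing notes name STAR 2.5.3a and GRCm38, whereas annotation and strand setting are not given in the sources used here. The treatment protocol text is the same for every sample, so groups were taken from the titles. Symbols were found for 50376 identifiers, and exon lengths are from GENCODE M21.

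Counts were analyzed in R 4.3.3 with edgeR 4.0.16 (filterByExpr, TMM, quasi-likelihood fit of all 9 libraries, 15531 genes tested, prior count of 0.125). The threshold is that of the study's methods. Standard errors were derived from the F statistic. Intervals of count ratios are exact conditional binomial 95% intervals. Alternatives were DESeq2 1.42.0, limma-voom (limma 3.58.1), other scalings, filters, and thresholds, a replicate block, and leaving out each library. On simulated counts of 15033 genes for treated against control osteoblasts, edgeR, limma-voom, and DESeq2 each recovered all 200 genes that were altered by 3 on the log2 scale, with 0 false calls. No pair of replicates agreed within sampling noise. The chi-square per gene was 2.85 to 4.57 for pairs of EC libraries, 3.24 to 27.4 for treated pairs, and 27.2 to 104 for control pairs. The fit of all 9 libraries shares its estimate of the spread between these groups.

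The factors, lists, and rules were chosen with earlier results of these data known. The genes named are all factors, the list genes past the threshold after treatment, and the 3 genes most alike to each factor past it. Other list and marker genes were named after their values were seen.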

Additional observations from a re-analysis of the deposited data

How the results depend on the processing

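Of the alternatives run, those below changed the number of factors past the threshold. For treated against control osteoblasts, 2 factors were lower. This became 1 in the test against a log2 fold change of 2, where Tal1 was lost, and 3 with the fold threshold lowered to 1 on the log2 scale, where Sox18 was added. Leaving out each library in turn gave between 2 and 3, with 3 without SB216763 replicate 2. All alternatives gave 0 higher with treatment, and 9 higher in ECs than in controls. With a replicate block, 2 factors were lower and 0 higher after treatment, and the block changed no call of a factor. The labels do not tie same-numbered libraries, whose deviations correlated between -0.0392 and 0.123. The direction of 2 factors with few counts changed when a library was left out, with a log2 fold change between -0.38 and 1.09 for Lmo2 and between -1.64 and 0.22 for Sox7. Scaling by library size alone moved the median of all genes to 0.22, and relative to it Fli1 was at 0.40 and Gata2 at 0.63. Over all genes, the 592 higher and 907 lower calls became 1726 and 2015 with the lowered threshold, and 318 and 611 in the test against a log2 fold change of 2. With the treated and control libraries alone, Erg, Sox7, Sox17, and Lmo2 were not tested. In that fit the adjusted p by edgeR was 1.78e-05 for Tal1, 4.53e-07 for Hhex, and 0.0252 for Sox18.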
